A study of Pyrus ussuriensis with 15 samples.

Results

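The comparison of day 9 with day 6 of adventitious rooting in *Pyrus ussuriensis* Maxim, the Ussurian pear, took 6 of the 15 RNA-seq libraries of a time course, 3 from day 9 and 3 from day 6, and was made with and without adjustment for the length of each gene model. The plants of both days were buds subcultured for 25 days in vitro and then held on rooting medium, half-strength MS salts with 0.5 mg/L indole-3-butyric acid (IBA), 30.0 g/L sucrose and agar at pH 6.0. No genotype or treatment sets the days apart, so every group carries the auxin, and there is no parallel series off IBA. The labels call the tissue adventitious roots on all 5 days, day 0 included, and the reads were set against the genome of a different pear species, *P. bretschneideri*. The 3 libraries of a day are replicates by their labels, with nothing said of separate cultures, so the p-values reflect how far these libraries differ among themselves, and that spread may be technical.

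Adventitious roots are roots that arise from organs other than roots, here from shoots. IBA is an auxin that plants turn into indole-3-acetic acid, and auxin of this kind prompts cells near the vascular tissue of a stem to divide, to organise a root primordium and to push a new root out through the stem. Fruit trees such as pears are known as hard to root. The gene models carry identifiers but no names or descriptions, so the label of the tissue could not be set against root or shoot markers, no gene family can be named, and models other than 4 are given by their place on the genome scaffolds.

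The day 9 libraries held 14005330, 11953240 and 15899404 counts, and the day 6 libraries 13177097, 15427560 and 17319407. The 3 day 9 libraries were more alike than the 3 day 6 libraries. Pairs of day 9 libraries correlated at 0.971 to 0.978 in log2 CPM (counts scaled to a common library size) across models, pairs of day 6 libraries at 0.939 to 0.948, and pairs of 1 library from each day at 0.903 to 0.928. The median absolute distance of a model from the mean of the other 2 libraries of its day was 0.189, 0.202 and 0.177 log2 units in day 9 replicates 1, 2 and 3, against 0.321, 0.258 and 0.301 in day 6 replicates 1, 2 and 3. Of 44681 gene models, 29134 had enough counts to be tested.

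Between day 6 and day 9 a large part of the measured transcriptome changed level, and the falls went deeper than the rises. At day 9, 5190 models were higher (17.8% of those tested) and 6343 were lower (21.8%), together 39.6%, by edgeR's quasi-likelihood test fitted on all 15 libraries, at a Benjamini-Hochberg adjusted p of 0.05. A fit on the 6 libraries of these days alone gave 3120 higher (11.5%) and 4682 lower (17.2%), of which 3075 and 4605 were also called in the larger fit and 0 were called in the opposite direction. All 3 day 9 libraries lay above all 3 day 6 libraries in 4935 of the 5190 models called higher, and below them in 5870 of the 6343 called lower. Over all tested models the day 9 libraries lay wholly above in 6396 (22% of models) and wholly below in 6897 (23.7%). These are bulk libraries, so fewer cells of a type and less RNA per cell cannot be told apart. The labels give no RNA quality values or run dates. A difference between the days in collection or library preparation therefore cannot be told apart from a change in the plants.

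The changes called higher were mostly small. Their median was 0.72 on the log2 scale, with quartiles of 0.522 and 0.985, so most stayed under 2-fold. The changes called lower had a median of -0.952 and quartiles of -1.57 and -0.603. At least 2-fold changes were 1263 higher (4.34% of tested models) and 2997 lower (10.3%).

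The change between the days ran with the length of the models: short models were mostly higher at day 9 and long models mostly lower. Counted over whole libraries, the mean length of a model weighted by its counts was 1288, 1290 and 1273 bases in day 9 replicates 1, 2 and 3, against 1560, 1583 and 1580 bases in day 6 replicates 1, 2 and 3. The groups did not overlap, and the day 9 libraries also lay below all 9 libraries of the other days, which ran from 1532 to 1638 bases. The day 9 libraries averaged 1284 ± 9.16 bases and the day 6 libraries 1575 ± 12.7 bases (SD, n = 3 each), a difference of -291 bases with an exact two-sided permutation p of 0.1, the smallest that 3 against 3 libraries can give.

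Models of at most 702 bases took 29.8%, 30.2% and 30.4% of the counts in the day 9 libraries, against 23.6%, 22.7% and 21.5% in the day 6 libraries. Models of at least 1758 bases took 21.4%, 21.3% and 20.6% at day 9, against 30.1%, 31% and 30.9% at day 6. Both shares separated the days without overlap. The 50 most counted models of each library took 13.1% ± 0.288 of its counts at day 9 and 10.5% ± 1.36 at day 6 (SD, n = 3 each, exact two-sided permutation p = 0.1). The number of models with at least 10 counts was 26359 ± 444 at day 9 and 27184 ± 701 at day 6 (SD, n = 3 each, exact permutation p = 0.3).

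**Figure D1:**
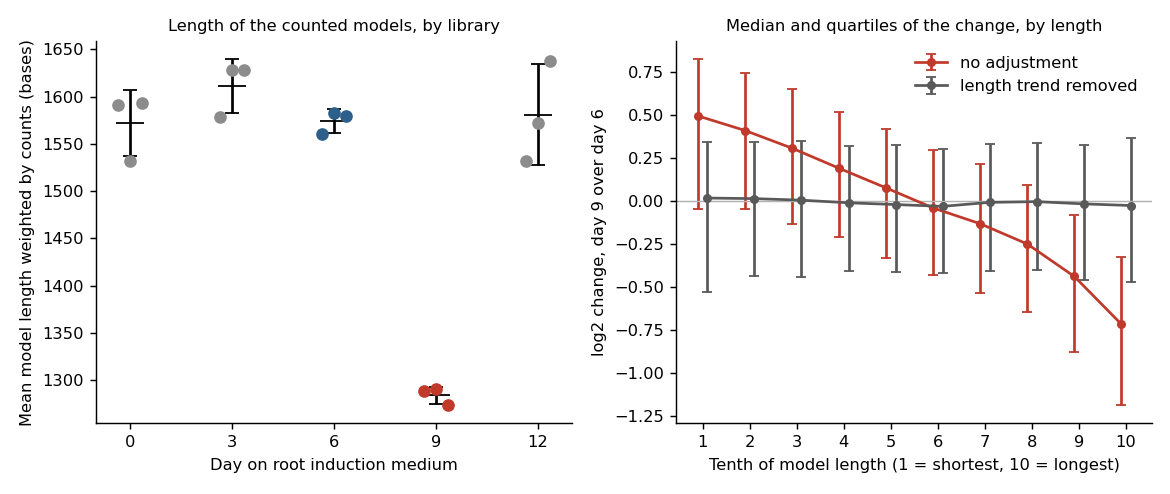
Left, the mean model length weighted by counts in bases (vertical axis, which does not start at 0) for each of the 15 libraries by day (day 9 red, day 6 blue), with the mean of each day as a line and its SD as a bar. The day 9 libraries lie between 1273 and 1290 bases and the day 6 libraries between 1560 and 1583. Right, the median log2 change of day 9 over day 6, with quartiles as bars, in 10 groups of models from the shortest to the longest: without adjustment the medians run from 0.496 to -0.717, and with the length trend removed they stay between -0.0307 and 0.0177. The adjustment itself holds the latter medians near 0.

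Across the 29134 models the log2 change had a Spearman correlation of -0.445 with length, a description across genes, which are not independent replicates. Each of the 9 pairs of 1 day 9 library and 1 day 6 library gave a like value, from -0.418 to -0.362. The change of day 12 over day 6, measured with the same day 6 libraries, had a correlation of -0.0161 with length, and that of day 6 over day 3 had -0.0986. Cut into 10 groups of equal size, the models of 150 to 423 bases had a median change of 0.496, with 1078 called higher and 270 called lower of 2913. The median then went down in every step of length, through 0.0765 in models of 978 to 1155 bases, to -0.717 in the 2914 models of 2606 to 16572 bases, of which 88 were called higher and 1774 lower.

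The gradient was present in each day 9 library taken alone. Against the day 6 mean, the shortest 10% of models had median differences of 0.458, 0.507 and 0.547 log2 units in day 9 replicates 1, 2 and 3, and the longest 10% had -0.687, -0.643 and -0.728. A day 6 library set against the mean of the other 2 stayed between -0.0578 and 0.0283 in every length group. No single library therefore carried the gradient, and what produced it was not tested.

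**Figure D2:**
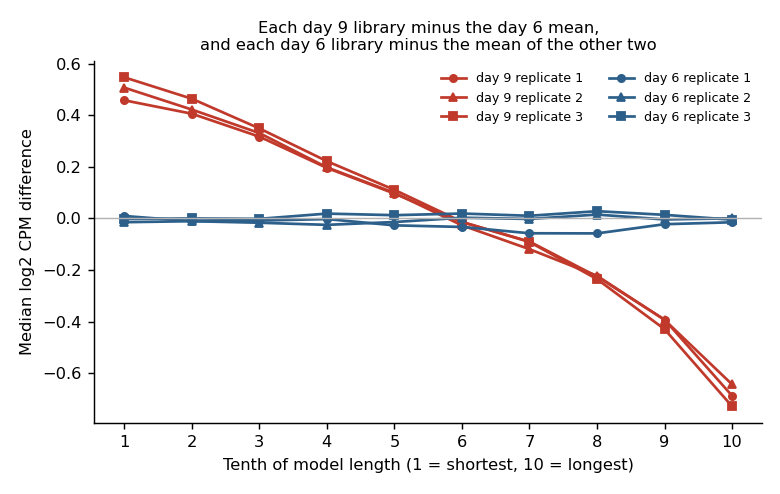
Median log2 CPM difference (vertical axis) in 10 groups of models from the shortest to the longest (horizontal axis), for each day 9 library against the day 6 mean and for each day 6 library against the mean of the other 2 day 6 libraries. The 3 day 9 lines slope down together, by about the same amount, and the 3 day 6 lines stay within -0.0578 to 0.0283.

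With the length trend removed from each library before the test, 3635 models were higher at day 9 (12.5% of those tested) and 4496 were lower (15.4%). The median changes of these models were 0.629 and -0.973 on the log2 scale, and 764 (2.62%) were at least 2-fold higher and 2179 (7.48%) at least 2-fold lower. Of the 11533 models called without adjustment, 6421 were called in the same direction, 4984 were no longer called and 128 were called in the opposite direction. All but 3 of these 128 belonged to the longest 25% of models and were lower before the adjustment and higher after it. Another 1582 models were called only after the adjustment. In both fits and in the same direction, 2570 models were higher (8.82%) and 3851 lower (13.2%). On the 6 libraries alone the adjusted fit called 1582 higher (5.82%) and 2564 lower (9.43%). The balance of higher and lower calls with the trend removed depended on how the trend was drawn: centring 20 bins of length on their means gave 4648 higher and 3893 lower, while the lower calls still led at 2-fold or more, with 981 higher and 1973 lower.

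After the adjustment, higher and lower calls were nearer to each other in number at both ends of the length range. The adjustment brings the directions closer by construction, so this is not a separate result. The shortest 25%, with 7322 models up to 702 bases, counted 2582 higher and 601 lower before it, and 784 higher and 985 lower after it. The longest 25%, with 7299 models from 1758 bases on, counted 287 higher and 3500 lower before it, and 1177 higher and 1432 lower after it. The share of models called in the adjusted fit was 40.5% in the longest 10% of models and 23.7% in the shortest 10%, against 27.9% over all. Which direction led among the short models in the adjusted fit depended on the setting. Without day 9 replicate 2, 477 were higher and 773 lower, while the genomic span in place of the length gave 1411 higher and 849 lower, the 20 bins 1241 higher and 805 lower, and no filter on low counts 1186 higher and 746 lower. Among the long models the 20 bins gave 1340 higher and 1304 lower.

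**Figure D3:**
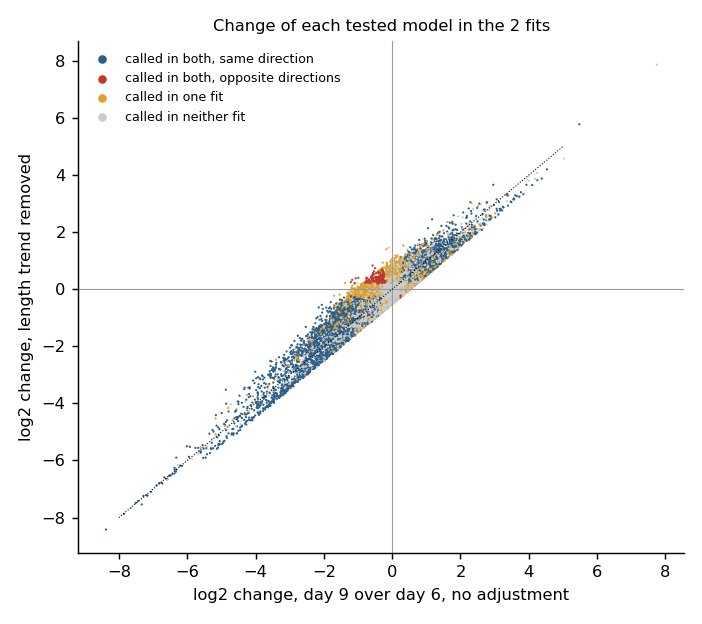
log2 change of day 9 over day 6 for each of the 29134 tested models without adjustment (horizontal axis) and with the length trend removed (vertical axis), coloured by how the 2 fits called the model, with a dotted line of equality. The cloud reaches further below 0 than above it on both axes, and the 128 models called in opposite directions lie close to 0.

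The excess of deep falls over steep rises was seen in both fits and was wider at 16-fold than at 2-fold. At least 2-fold in both fits were 523 models higher (1.8% of tested models) and 1911 lower (6.56%). At 4-fold the numbers were 80 higher and 776 lower, at 8-fold 20 higher and 345 lower, and at 16-fold 2 higher and 131 lower. A change of 32-fold or more in both fits was found in 1 model that was higher and in 57 that were lower.

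The deep falls were spread over weakly and moderately expressed models and were few among the most expressed. Models were ranked by the mean log2 CPM on days 0, 3 and 12. These days are outside the contrast but share its filter, scaling, spread and length offsets. The lowest 10% of models had 4.22% at least 2-fold higher and 8.31% at least 2-fold lower with the trend removed. The fourth group of 10% from the bottom had 2.95% higher and 11.7% lower. The highest 10% had 37 models higher (1.27%) and 63 lower (2.16%). The share of models called at any size went the other way, with 12.6% called in the lowest 10% and 39% in the highest 10%.

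The levels on the other days place these models in the time course. The 1911 models at least 2-fold lower in both fits had a median log2 CPM of 2.38 on day 0, 2.5 on day 3, 2.46 on day 6, 0.487 on day 9 and 2.27 on day 12. Their values at days 6 and 9 follow from how they were chosen. Days 0, 3 and 12 entered that choice only through the shared filter, scaling, spread and length offsets, and their medians lay close to each other. The 131 models at least 16-fold lower had 0.793, 0.965, 1.02, -2.48 and 0.699 on days 0, 3, 6, 9 and 12. Their day 9 quartiles were -2.73 and -1.74, near the floor set by the prior count of 2 that is added before logs are taken. The day 9 median of these 131 models is thus partly set by that floor. The 523 models at least 2-fold higher had 1.33 on day 0, 1.08 on day 3, 1.28 on day 6, 2.87 on day 9 and 2.11 on day 12, so their median on day 12 stood above that of days 0, 3 and 6.

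Day 12 was also tested against day 3, a contrast of neither day 6 nor day 9, in the fit with the trend removed. Its spread and length offsets come from all 15 libraries, so it is not independent of how the sets were chosen. Of all tested models 14.8% were higher at day 12 and 13.2% were lower. This background was not matched for level. The day 3 median log2 CPM was 1.08 for the 523 rises, 2.5 for the 1911 falls and 3.37 over all tested models. Of the 523 models higher at day 9, 202 (38.6%) were higher at day 12 than at day 3 and 23 (4.4%) were lower, with a median log2 change of 0.57. Of the 1911 models lower at day 9, 87 (4.55%) were higher at day 12 than at day 3 and 269 (14.1%) were lower, with a median of -0.182. For the set of falls the share of lower models was thus close to the background of 13.2%, but the share of higher models, 4.55%, was under the background of 14.8%. The falls that were called between day 3 and day 12 were therefore mostly lower at day 12. For the set of rises the share of higher models was above the background of 14.8%, and the share of lower models, 4.4%, was under 13.2%. Of the 131 deepest falls, 2 were higher and 9 (6.87%) lower at day 12 than at day 3.

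Models in 1 uninterrupted block and models without the Pbr prefix were frequent among the large changes. Of the 523 models higher, 160 (30.6%) lay in 1 block, meaning that their length equals their genomic span, and of the 1911 lower, 479 (25.1%) did, against 18.9% of all tested models. Models without this prefix made up 15.5% of the higher set, 13.2% of the lower set and 28.2% of the 131 deepest falls, against 5.81% of all tested models. The median length was 1020 bases in the higher set, 1242 in the lower set and 924 among the deepest falls, against 1155 over all.

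Counted from the side of the structure, 192 of the 5496 tested models in 1 block (3.49%) were at least 2-fold higher and 568 (10.3%) at least 2-fold lower with the trend removed. For the 23638 models split over several blocks these shares were 2.42% and 6.82%. Of the 1694 models without the Pbr prefix, 110 (6.49%) were at least 2-fold higher and 279 (16.5%) at least 2-fold lower, against 654 (2.38%) and 1900 (6.92%) of the 27440 Pbr models. Without adjustment, the 5915 split models with the most intervening sequence, at least 2590 bases, were lower in 2300 cases and higher in 547, with a median change of -0.313. The 5916 with the least, at most 726 bases, were lower in 879 and higher in 1244, with a median of 0.135. With the length trend removed these medians were -0.0659 and 0.038.

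Single models were taken from those that averaged log2 CPM 1 or more over the 6 libraries and were called in the same direction in the 15-library fit, its length-adjusted form and the 6-library fit, with no overlap between the days. This held for 1851 models that were higher and 2609 that were lower, ranked by the size of the adjusted change. Levels are given as CPM scaled by TMM factors. The first of the rises was that of Pbr026429.1, a model of 642 bases in 1 block on the plus strand of scaffold428.0 from 193736 to 194377. It had 19.5, 10.7 and 6.66 CPM in the day 9 libraries, from 261, 119 and 102 counts, against 0.613, 0.192 and 0.753 CPM in the day 6 libraries, from 8, 3 and 13 counts. Every day 9 library stood well above every day 6 library, though the day 9 values themselves ranged nearly 3-fold. The log2 change was 4.53 ± 0.79 (SE, edgeR adjusted p = 5.05e-04) and 4.20 ± 0.78 with the trend removed (adjusted p = 0.0014). Pbr026429.1 averaged 0.84 ± 0.621 CPM on day 0, 0.773 ± 0.515 on day 3 and 7.69 ± 6.08 on day 12 (SD, n = 3 each).

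The next rise, that of Pbr013698.1, was uneven between the day 9 libraries. This model of 420 bases lies on the minus strand of scaffold200.0 from 449155 to 451244. It had 1.64, 19.1 and 13.4 CPM at day 9, against 0.689, 0.513 and 0.753 CPM at day 6. Day 9 replicate 1 was only a little above the day 6 libraries, and the other 2 day 9 libraries were far above them. The log2 change was 4.10 ± 0.94 (SE, edgeR adjusted p = 0.00352), and 3.65 ± 0.92 with the trend removed (adjusted p = 0.00936). It averaged 1.1 ± 0.3 CPM on day 0, 1.31 ± 0.152 on day 3 and 3.44 ± 4.3 on day 12 (SD, n = 3 each), the last from 8.41, 1.03 and 0.889 CPM.

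The first of the falls in this ranking was that of Pbr016326.1, a model of 486 bases on the minus strand of scaffold240.0 from 471048 to 472671. It had 1.57, 0.807 and 0.718 CPM at day 9, from 21, 9 and 11 counts, against 45.3, 50.7 and 29.8 CPM at day 6, from 591, 790 and 514 counts. The lowest day 6 library lay far above the highest day 9 library. The log2 change was -5.33 ± 0.31 (SE, edgeR adjusted p = 8.33e-08) and -5.74 ± 0.33 with the trend removed (adjusted p = 1.50e-07). On the days outside the comparison it stood near its day 6 level of 41.9 ± 10.8 CPM, at 36.8 ± 7.16 on day 0, 52.7 ± 3.17 on day 3 and 37.4 ± 7.47 on day 12 (SD, n = 3 each).

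Pbr022584.1, a model of 1020 bases on the minus strand of scaffold341.0 from 462334 to 465088, gave the next fall. It had 0.0746, 0.448 and 0.326 CPM at day 9, from 1, 5 and 5 counts, against 9.57, 11.4 and 20.6 CPM at day 6, from 125, 178 and 356 counts. Here the day 9 libraries were close to the limit of counting, and all day 6 libraries were well measured. The log2 change was -5.61 ± 0.52 (SE, edgeR adjusted p = 2.92e-06) and -5.73 ± 0.53 with the trend removed (adjusted p = 5.24e-06). It averaged 10.5 ± 2.86 CPM on day 0, 11.8 ± 2.28 on day 3 and 10.1 ± 3.8 on day 12 (SD, n = 3 each).

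**Figure D4:**
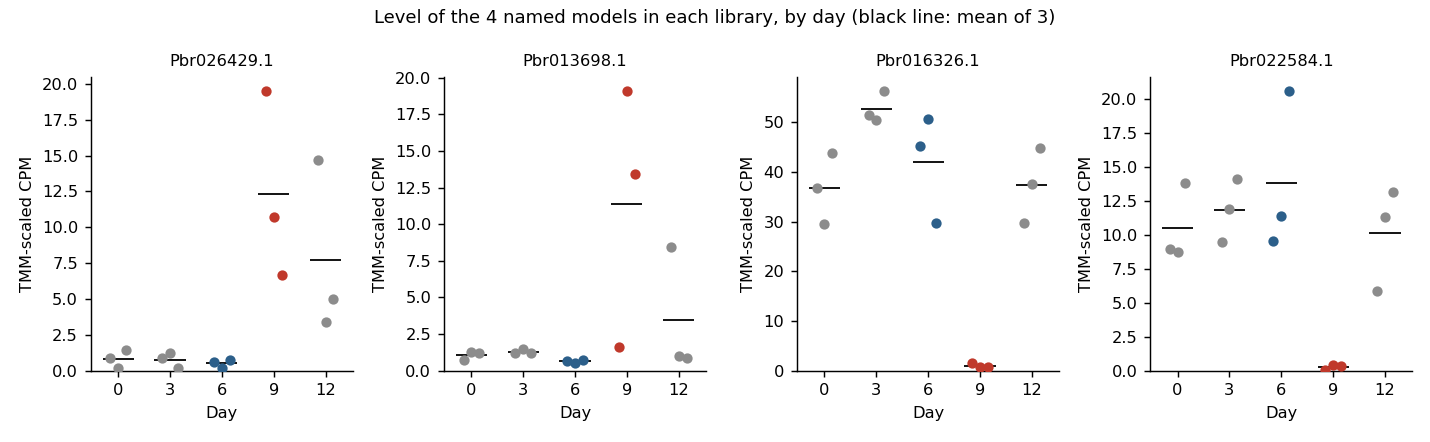
TMM-scaled CPM (vertical axes, from 0) of Pbr026429.1, Pbr013698.1, Pbr016326.1 and Pbr022584.1 in each of the 15 libraries, by day on the horizontal axis, with the mean of the 3 libraries as a black line (day 9 red, day 6 blue). The models that were higher are near 1 CPM up to day 6 and spread out on days 9 and 12, and those that were lower are at their lowest on day 9, with day 12 means of 37.4 and 10.1 CPM.

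The first 12 models each way differed in how even they were. Among the 12 rises, with log2 changes of 2.29 to 4.53, the highest day 9 library was over 3 times the lowest in 6, and the highest day 6 library was over 3 times the lowest in 6. Among the 12 falls, with log2 changes of -5.68 to -4.13, this was so for the day 9 libraries in 3 and for the day 6 libraries in 1. The day 12 mean was at or under the highest day 6 library in 5 of the 12 rises and at or over the lowest day 6 library in 6 of the 12 falls.

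A model of 1179 bases on scaffold317.0 from 147723 to 149965 had 64.5, 74.8 and 72.1 CPM at day 9 against 3.83, 5 and 11.7 CPM at day 6, with even libraries at day 9 and uneven ones at day 6. On scaffold603.0 a pair of neighbours on opposite strands rose in the same uneven way. The model from 121941 to 123281 had 81.4, 182 and 24.5 CPM at day 9 against 8.42, 11.2 and 5.91 CPM at day 6. The model from 125766 to 126817 had 19.6, 61.2 and 6.85 CPM at day 9 against 3.22, 3.21 and 1.97 CPM at day 6. In both, day 9 replicate 2 was the highest and day 9 replicate 3 the lowest of the day 9 libraries.

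Among the falls, a model on scaffold313.0 from 44994 to 46096 had 5.97, 9.42 and 4.11 CPM at day 9 against 195, 189 and 193 CPM at day 6, and averaged 120 CPM on day 12. Its 3 day 6 libraries were nearly equal. A model on scaffold260.0 from 349542 to 350150 had 2.54, 3.05 and 6.79 CPM at day 9 against 15.9, 300 and 46.6 CPM at day 6. Its day 6 libraries were far apart, and unlike the models above it stayed low on day 12, at a mean of 2.4 CPM, after 158 CPM on day 0 and 156 CPM on day 3.

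Few models were wholly without counts on one of the days. At day 9, 9 models had 0 counts in all 3 libraries while each day 6 library held at least 10, and all 9 were called lower in both fits. All 9 had counts again on day 12. The one with the most counts, a model of 975 bases on the minus strand of scaffold421.0 from 201271 to 205188, had 0, 0 and 0 counts at day 9 against 36, 49 and 40 at day 6. It was at least 36.2-fold lower, taking 3 counts over the day 9 libraries together as the limit that a count of 0 allows, and the other 8 were at least 10.1-fold to at least 15.9-fold lower. Its counts were 50, 42 and 43 on day 0, 46, 50 and 59 on day 3, and 20, 47 and 42 on day 12, so the 3 day 9 libraries alone of all 15 lacked it. These limits cover counting error only.

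The opposite was seen in 1 model, of 1527 bases on the plus strand of scaffold98.0 from 586198 to 587724. It had 13, 24 and 33 counts at day 9 against 0, 0 and 0 at day 6, at least 26.9-fold higher. It was not called in either fit, and 55 counts in day 0 replicate 2 were its only counts outside day 9.

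Neighbouring models sometimes changed together. Runs of at least 4 tested neighbours, all at least 2-fold in one direction in both fits, were found 4 times, 2 higher and 2 lower. Shorter runs were mostly of falls: 0 runs of 3 models were higher and 13 lower, and 17 runs of 2 were higher and 133 lower. Falls of this size were also more common among all tested models, at 6.56% against 1.8% for rises. How many runs these shares alone would give was not worked out. In all 4 longer runs the day 9 libraries lay wholly beyond the day 6 libraries in every model, which the way they were chosen favours.

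The longest run, on scaffold687.0, held all 7 models listed from 80966 to 109343, 3 on the plus and 4 on the minus strand. They were higher at day 9 by log2 changes of 1.7 to 3.84, and by 1.51 to 3.33 with the trend removed (edgeR adjusted p of 0.0118 to 0.0336). The most counted of them, from 91104 to 92636, had 17, 33.1 and 12.7 CPM at day 9 against 8.73, 5.07 and 4.69 CPM at day 6. Day 9 replicate 2 was the highest library here and in most of the run, and without it 6 of the 7 were called without adjustment and 3 with the trend removed. On the 6 libraries alone all 7 were called without adjustment and 4 with the trend removed. The model with the change of 3.84, from 80966 to 81163, had 0.23, 0.0642 and 0 CPM at day 6, and its log2 change was 5.17 without day 6 replicate 1 and 3.21 without day 6 replicate 3. The run on scaffold62.0 held 4 of 4 models from 758350 to 791342, higher by 1.05 to 2.07, and by 1.75 to 2.45 with the trend removed. Its last model, of 6882 bases from 777304 to 791342, had 75.9, 81 and 83.6 CPM at day 9 against 42.8, 35.2 and 38.6 CPM at day 6. These 2 groups of values were each tight and lay well apart, and all 4 models were called with any of the 6 libraries left out.

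The longest run of falls held 6 models on scaffold705.0 from 52399 to 128397, where 9 are listed, 1 on the plus and 5 on the minus strand. Their log2 changes ran from -6.82 to -1.62, with a median of -3.45, and from -6.79 to -1.83 with the trend removed (edgeR adjusted p of 1.75e-05 to 0.036). The first of them, from 52399 to 63696, had 2.98, 3.77 and 3.13 CPM at day 9 against 10.8, 10.1 and 9.45 CPM at day 6. The fourth, from 105275 to 107093, is among the 9 models above and had 0, 0 and 0 CPM at day 9 against 0.996, 0.962 and 0.811 CPM at day 6. At least 5 of the 6 were called with the trend removed and any 1 of the 6 libraries left out. The run on scaffold210.0, 4 of the 6 models listed from 501009 to 590030, was lower by -3.93 to -1.28. The change of -3.93, in the model from 545609 to 547953, leaned on day 6 replicate 1: it had 0.224, 0.269 and 0.457 CPM at day 9 against 12.5, 1.8 and 0.985 CPM at day 6, and its log2 change without that library was -2.07. The models at 501009 to 503353 and 545609 to 547953 have the same span of 2345 bases and the same length of 1764 on opposite strands, so copies that share reads are possible. In the 6-library fit 3 of its models were tested and called, and with the trend removed 1 was.

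**Figure D5:**
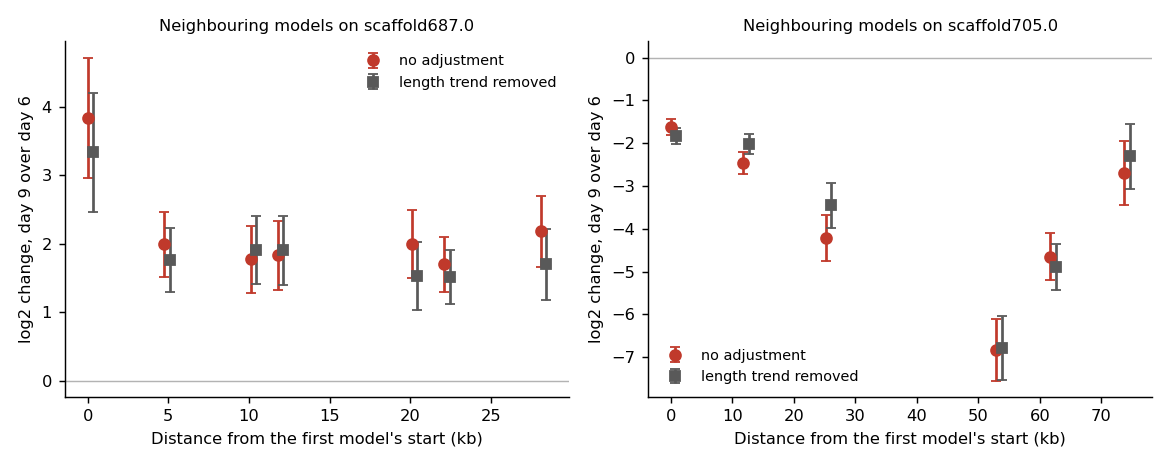
log2 change of day 9 over day 6 with its SE (vertical axes) for each model of the runs on scaffold687.0 and scaffold705.0. The horizontal axes give the distance in kb from the start of the first model. Values are shown without adjustment and with the length trend removed. All models of scaffold687.0 lie above 0 and all models of scaffold705.0 below it, in both fits.

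The models that ranked highest by FPKM were short, and without adjustment most of them were higher at day 9. Ranked per length, by FPKM (counts scaled by model length and library depth) averaged over days 0, 3 and 12, the first 20 models had lengths of 165 to 921 bases. Of these 20, 11 were higher, 0 lower and 9 not called, against a background of 17.8% higher and 21.8% lower. Their median length was 351 bases, and of the 2913 tested models of 150 to 423 bases 1078 were higher and 270 lower. Ranking by FPKM divides by length and so favours short models. By mean log2 CPM on the same days, the highest 10% of models had a median length of 1401 bases, with 737 higher and 994 lower. With the trend removed, 5 of the 20 models ranked by FPKM were higher, 1 was lower and 14 were not called. The first of them lies on scaffold31.0 from 335592 to 336062, on the minus strand, and is 237 bases long. It had 121528, 122883 and 115516 FPKM at day 9 against 112442, 86524 and 72383 FPKM at day 6. It took 2.88%, 2.91% and 2.74% of all counts in the day 9 libraries and 2.66%, 2.05% and 1.72% in the day 6 libraries. The groups did not overlap, and the day 6 libraries were the more scattered. Its log2 change was 0.478 ± 0.176 (SE, edgeR adjusted p = 0.0456), and -0.0185 ± 0.159 with the trend removed (adjusted p = 0.947), so it was called without adjustment only. The largest called rise among the 20 was that of a model of 921 bases on scaffold715.0 from 5217 to 6137, with 6078, 7142 and 7225 FPKM at day 9 against 3805, 3503 and 2977 FPKM at day 6. It was called in both fits, at log2 changes of 1.06 ± 0.236 (SE, edgeR adjusted p = 0.00287) and 0.882 ± 0.241 with the trend removed (adjusted p = 0.0151).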

How the data were processed

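Messenger RNA was sequenced with TruSeq libraries from 1 µg of total RNA, and HISAT is named in the submitters' processing notes; its version, the counter and any use of strand are not stated there. The authors deposited 1 table with raw read counts and FPKM for 44681 gene models, with scaffold, strand, start, end and length. Recomputing FPKM from the deposited counts and lengths gave 97.58% of 492150 values within 1e-04. The lengths of the 42812 models with the Pbr prefix are all multiples of 3 (coding length), while 1869 models have another prefix. The genome build is not given in the sources used here. All per-sample columns were used, and the days came from the labels.

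Counts were tested with edgeR 4.0.16 in R 4.3.3: filterByExpr by day (29134 models), TMM, a quasi-likelihood fit on 15 libraries (10 residual degrees of freedom, biological coefficient of variation 23%; 27.3% on 6 libraries with 4), contrast day 9 minus day 6, Benjamini-Hochberg adjustment over all tested models. Called means an adjusted p under 0.05. An SE is the log2 change divided by the square root of F. For the adjusted fit, a lowess (span 0.3) of log2 CPM (prior count 2) minus the model's mean over libraries, on log10 length, entered as offsets per library. Alternatives were DESeq2 1.42.0 and its size factors, no filter, 6 libraries only, Pbr models only, a replicate block, leaving out each library, limma 3.58.1 on log2(FPKM + 1) and log2(FPKM + 0.1) for models of at least 1 FPKM, the trend from 20 bins of length, and genomic span in place of length.

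The comparison, the length groups and the rules were chosen with earlier results of these data known. Models are named if called in the same direction in both 15-library fits and the 6-library fit, averaging log2 CPM 1 or more and no overlap between days, ranked by the adjusted change: the first 2 each way by identifier and the first 12 as ranges, from which the examples by position were picked after their values were seen. Lists of gene functions were planned but not tested, as the identifiers carry no descriptions.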

Additional observations from a re-analysis of the deposited data

How the results depend on the processing

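The balance of higher and lower adjusted calls, where lower calls led, turned in some settings: over all models with the 20 bins of length (4648 higher and 3893 lower), in the short models with the 20 bins (1241 and 805), without a filter (1186 and 746) and with the genomic span (1411 and 849), and in the long models with the 20 bins (1340 and 1304). Over all settings the median change of all models moved to at most 0.0711 on the log2 scale. The number of models called was lowest in the fit on the 6 libraries alone. It gave 3120 higher and 4682 lower, and 1582 higher and 2564 lower with the trend removed. It kept 7680 of the 11533 calls and 4067 of the 8131 adjusted calls in the same direction. That fit tested 27188 models in place of 29134 and left 4 residual degrees of freedom in place of 10. What these and the spread each contributed was not tested. Leaving out 1 library gave 4113 to 5443 higher and 5442 to 6757 lower, and 2621 to 4200 higher and 3660 to 4932 lower with the trend removed. The lowest counts came without day 9 replicate 3 (unadjusted) or day 9 replicate 2 (adjusted), and the highest without day 6 replicate 1. DESeq2 gave 5554 higher and 6567 lower, and 4080 and 4865 with the trend removed. limma on log2(FPKM + 1) called 738 models at least 2-fold higher and 1950 at least 2-fold lower.

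Same-numbered libraries did not deviate together (r of 0.0239, -0.0804 and -0.0816 between day 9 and day 6). Libraries with unlike numbers gave -0.0927 to 0.155. Deviations from a mean of 3 libraries are tied to each other, so these values cannot decide whether the numbers pair the samples. The replicate block gave 5111 higher and 6146 lower, and 3513 and 4281 with the trend removed.

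The Spearman correlation with length was -0.412 for day 9 replicate 2 against the day 6 mean, -0.405, -0.400 and -0.414 for the day 9 mean against day 6 replicates 1, 2 and 3, and -0.350 with the genomic span. The difference in mean length stayed between -298 and -286 bases with a library left out. The adjusted calls in short models were the least settled: 248 higher and 583 lower in the 6-library fit, and 477 higher and 773 lower without day 9 replicate 2. In long models they were 622 higher and 862 lower in the 6-library fit, and 755 higher and 2199 lower with the span. As the rule that chose them favours, the 4 named models kept direction and call in every alternative run. Pbr013698.1 came closest to losing it, with an adjusted p of 0.0368 (edgeR) and a log2 change of 3.05 to 4.17 with the trend removed, the p without day 9 replicate 2.

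Models with few counts at day 9 have fold changes that counting error limits.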
